A study of Mus musculus with 11 samples.

Results

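The genes described here belong to the cytotoxic granule and its secretion, and were followed by symbol through the deposited count table: Rab27a, Unc13d, Stx11 and Stxbp2 of the docking and fusion machinery, Lamp1 and Lamp2 of the granule membrane, Srgn of the granule matrix, and the cathepsins Ctsw, Ctsc and Ctsd. All 10 were found, among 52636 genes in the table, and all 10 passed the filter on low counts that left 13735 genes for testing. The libraries came from CD8 T cells sorted from spleens of C57BL/6 mice: 4 libraries of CD45RBhi NP396+ memory cells, 4 of CD45RBlo NP396+ memory cells and 3 of naive (CD44lo) cells. For the memory groups the labels give infection with 200000 pfu of LCMV Armstrong, a strain that the immune system clears, and sorting with an NP396 tetramer, which binds T cells specific for a peptide of the viral nucleoprotein, 42 to 45 days later; the sorted cells are given as over 99% pure. For naive libraries the labels hold the same infection text beside a time entry of 6 to 8 weeks whose meaning is not stated, so it is not known here whether naive and memory mice differed in age. No allele, transgene or drug is named for any group. CD45RB is the form of the surface phosphatase CD45 that includes exon B. The labels do not say that replicates came from separate mice, and p-values therefore describe how these libraries vary, which may be technical in part.

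A cytotoxic T cell stores perforin and granzymes in lysosome-related organelles and releases them at the contact with its target. The granule travels to the contact, docks at the plasma membrane through RAB27A, is primed by UNC13D, and fuses through a SNARE complex that contains syntaxin-11 held by STXBP2. In humans, loss of RAB27A causes Griscelli syndrome with immunodeficiency, and loss of UNC13D, STX11 or STXBP2 causes familial hemophagocytic lymphohistiocytosis. Inside the granule, granzymes are held on serglycin, a proteoglycan core protein, and cathepsin C removes the short leader that keeps granzymes inactive.

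All libraries carried CD8 T cell transcripts. The 10 identity markers Cd3d, Cd3e, Cd3g, Cd247, Cd8a, Cd8b1, Cd2, Cd5, Lck and Thy1 summed to 10310 to 12330 CPM in CD45RBhi, 10180 to 11950 CPM in CD45RBlo and 8999 to 9659 CPM in naive libraries (CPM, counts scaled to a common library size), and Cd4 had 0 to 9 counts in a library. Total counts ran from 18024793 to 23151297 per library. Summed markers of myeloid cells, of B cells, and of erythroid cells and platelets were highest in naive libraries, whereas the other lists differed from this. The 22 macrophage, monocyte and neutrophil markers summed to 40.7 to 54.8 CPM in CD45RBhi, 42.5 to 59.0 CPM in CD45RBlo and 72.1 to 111 CPM in naive libraries. Of 14 tested, 10 were lower in each memory group, beside 19.1% and 19.8% of all genes, while Cd68 and Itgam were higher. The 15 B cell markers summed to 19.1 to 51.4 CPM in CD45RBhi, 24.1 to 36.4 CPM in CD45RBlo and 159.7 to 196.5 CPM in naive libraries. Of 13 tested, 11 were lower in CD45RBhi and 12 in CD45RBlo, beside 19.1% and 19.8% of all genes. Cd22 was higher in both, at 7.93 CPM in CD45RBhi, 13.9 CPM in CD45RBlo and 1.88 CPM in naive libraries. The 13 erythroid and platelet markers summed to 1.52 to 3.45 CPM in CD45RBhi, 3.85 to 30.1 CPM in CD45RBlo and 254 to 548 CPM in naive libraries. Macrophages and platelets also carry lysosomal genes, and the part of these cells in the results below was not tested. Neutrophil Mpo, Elane and S100a9 had 0 counts in all 11 libraries, and the NK cell gene Ncr1 had at most 2. The 10 mast cell and basophil markers summed to 1.30 to 5.03 CPM in CD45RBhi, 2.35 to 4.12 CPM in CD45RBlo and 4.10 to 5.22 CPM in naive libraries. Of these, Mcpt8, Mcpt4, Tpsb2, Fcer1a, Ms4a2 and Prss34 had 0 counts in every library, whereas Cpa3, Hdc and Kit were detected in memory and naive libraries. Cma1, a mast cell chymase, had 6 to 16 counts in CD45RBhi, 6 to 28 counts in CD45RBlo and 0 counts in naive libraries, and was called higher in both memory groups. The 12 NK cell markers, which include Nkg7 and other genes that memory CD8 T cells express, summed to 4109 to 4417 CPM in CD45RBhi, 4201 to 4630 CPM in CD45RBlo and 892 to 919 CPM in naive libraries. In each memory group 8 of 10 tested were higher and 1 lower, beside 22.3% and 22.4% of all genes higher. Klrb1c averaged 178 CPM in CD45RBhi, 173 CPM in CD45RBlo and 0.313 CPM in naive libraries. Klre1 averaged 39.6, 61.0 and 0.0949 CPM in the same order. The part of NK cells in the results below was not tested. The 8 markers of CD4 and regulatory T cells summed to 70.3 to 133 CPM in CD45RBhi and 106 to 151 CPM in CD45RBlo. In naive libraries they summed to 23.3 to 29.5 CPM. Of 7 tested, 4 were higher and 2, Foxp3 and Ikzf4, lower in each memory group. Over all genes, 22.3% were higher and 19.1% lower in CD45RBhi, and 22.4% and 19.8% in CD45RBlo. Cxcr5 was the largest in memory libraries, at 67.7 CPM in CD45RBhi and 86.6 CPM in CD45RBlo (log2 fold changes 2.27 and 2.63). Ikzf4 averaged 0.502 CPM in CD45RBhi, 0.536 CPM in CD45RBlo and 6.12 CPM in naive libraries. Foxp3 had 0 counts in CD45RBhi, 0 to 1 in CD45RBlo and 16 to 30 in naive libraries. The 11 dendritic cell markers summed to 193 to 342 CPM in CD45RBhi, 149.6 to 252 CPM in CD45RBlo and 237 to 289 CPM in naive libraries, and the overlap of these sums hides large changes of single markers in opposite directions. Itgax averaged 166 CPM in CD45RBhi, 123 CPM in CD45RBlo and 0.732 CPM in naive libraries, and Ccr9 averaged 1.11 CPM in CD45RBhi, 1.87 CPM in CD45RBlo and 168 CPM in naive libraries. In bulk libraries, a difference in the number of cells that express a gene and a difference in RNA per cell cannot be told apart.

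Memory cells of both kinds carried more transcript of most of the granule genes than naive cells did. With edgeR's quasi-likelihood test and Benjamini-Hochberg adjustment over all genes, 8 of 10 were higher in CD45RBhi and 7 of 10 in CD45RBlo memory, and none was lower. Over all 13735 genes, 41.5% were called in CD45RBhi against naive (22.3% higher and 19.1% lower) and 42.2% in CD45RBlo against naive (22.4% higher and 19.8% lower). The median log2 fold change of the 10 genes was 0.79 in CD45RBhi and 0.89 in CD45RBlo memory, against a median of -0.01 for all genes in both comparisons. Both comparisons use the same 3 naive libraries. With library size alone as the scaling, the split of calls over all genes turned to 2301 higher and 3724 lower in CD45RBhi, and to 2356 higher and 3609 lower in CD45RBlo, as the median of all genes moved to -0.16 and -0.14; the counts of 8 and 7 granule genes, all higher, were the same under that scaling.

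**Figure D1:**
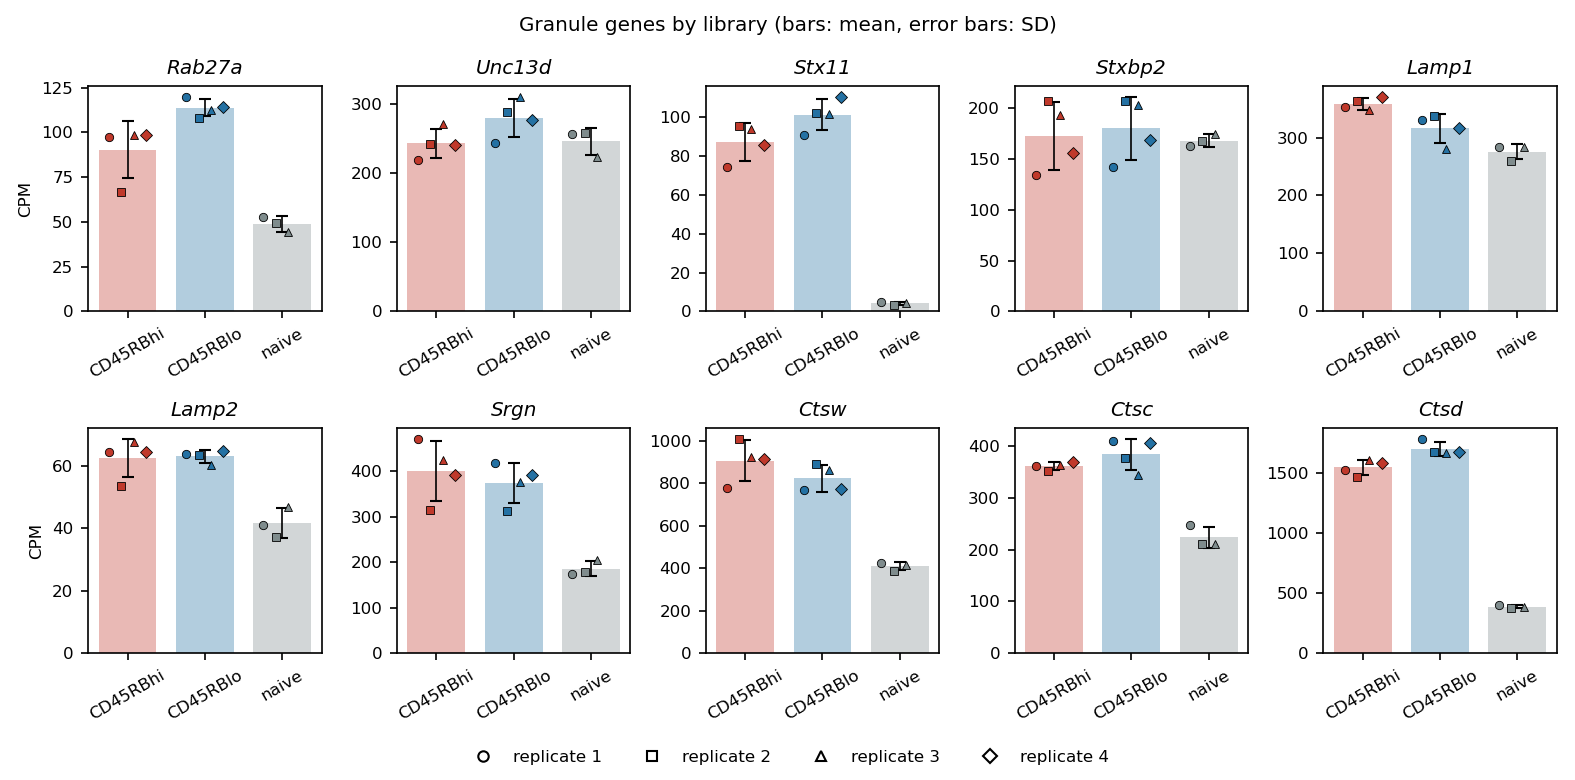
Expression of the 10 granule genes in CPM (vertical axis, from 0) in CD45RBhi memory, CD45RBlo memory and naive libraries. Bars are means, error bars are SD, and each point is 1 library with its replicate number as the symbol; Stx11 lies between 3.16 and 4.93 CPM in naive libraries and above 74 CPM in every memory library, while Unc13d and Stxbp2 overlap between all groups.

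The promoter letters of 3 of the genes are shown because these genes frame the result. Stx11 and Ctsd had the largest increases in both memory groups. Lamp1 had the smallest that was called in CD45RBhi against naive, and was not called in CD45RBlo. The sequences come from RefSeq on GRCm38.p6, in which 8 of the 10 genes had an entry (Unc13d and Ctsw had none), and each covers the 250 bases before the gene start in RefSeq, read 5′ to 3′ on the gene's strand. RefSeq starts can differ from the GENCODE positions given below. The windows of Ctsd and Stx11 reach into the gene as GENCODE places it, that of Ctsd for most of its length. Capitals mark CACGTG, the core of the E-box in the CLEAR element known from lysosomal gene promoters.
Lamp1, chr8:13158911-13159160, plus strand: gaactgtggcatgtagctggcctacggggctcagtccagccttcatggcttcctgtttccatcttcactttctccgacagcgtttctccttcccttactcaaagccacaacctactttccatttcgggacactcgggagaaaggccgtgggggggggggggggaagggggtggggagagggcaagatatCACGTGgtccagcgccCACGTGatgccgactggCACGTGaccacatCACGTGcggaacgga
Ctsd, chr7:142387828-142388077, minus strand: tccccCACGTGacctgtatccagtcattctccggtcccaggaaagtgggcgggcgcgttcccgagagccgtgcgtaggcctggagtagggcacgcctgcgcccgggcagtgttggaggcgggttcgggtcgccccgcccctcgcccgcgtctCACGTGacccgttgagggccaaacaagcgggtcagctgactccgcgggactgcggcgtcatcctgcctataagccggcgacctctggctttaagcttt
Stx11, chr10:12964260-12964509, minus strand: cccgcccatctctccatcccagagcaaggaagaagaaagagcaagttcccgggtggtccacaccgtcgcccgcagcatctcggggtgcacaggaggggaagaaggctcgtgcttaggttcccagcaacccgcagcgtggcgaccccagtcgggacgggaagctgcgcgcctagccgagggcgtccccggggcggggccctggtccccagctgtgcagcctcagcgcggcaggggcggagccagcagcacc

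Lamp1 held 4 copies of CACGTG, all within 61 bases of the start, and Ctsd held 2. The nearer Ctsd copy began 98 bases before the RefSeq start, inside the gene as GENCODE places it. At least 1 copy stood in 6.02% of 32851 windows of the same length, at least 2 in 0.429%, and at least 4 in 7 windows, of which Lamp1 was one. Among the 10 windows of the 8 matched genes (Rab27a and Srgn have 2 starts each), 4 held it: Lamp1, Ctsd, Stxbp2 and the downstream start of Rab27a. The windows of Stxbp2, of the downstream Rab27a start and of both Srgn starts also reach into the gene by GENCODE positions. Stx11, with 70.0% G and C in this window, held none. Further motifs were searched on both strands. The T-box letters TCACACCT stood in 1 of the 10 windows, that of the upstream Rab27a start (1.12% of all windows), the RUNX letters TGTGGT in 3, of Lamp1, Rab27a and Srgn (14.05% of all windows), and the ETS letters ACTTCCGC in 0 (1.34% of all windows). The 4 motifs overlapped each other in 0 places in these windows. A match describes letters and not binding.

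Among the docking and fusion genes, Stx11 changed most. The gene encodes the syntaxin of the granule fusion complex and lies on chromosome 10 from 12938209 to 12964298 (GRCm38, minus strand, ENSMUSG00000039232). It had 74.3, 95.8, 94.0 and 85.8 CPM in CD45RBhi libraries 1 to 4, 91.0, 102.5, 101.6 and 110.7 CPM in CD45RBlo libraries 1 to 4, and 4.93, 3.16 and 4.14 CPM in naive libraries 1 to 3. Every memory library lay far above every naive one. Its log2 fold change against naive was 4.42 ± 0.163 in CD45RBhi (SE, adjusted p = 5.21e-10) and 4.63 ± 0.164 in CD45RBlo (adjusted p = 3.54e-10), or 21.4-fold and 24.8-fold. The naive value was low but measured, with 61 to 108 counts in a library.

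Rab27a, the GTPase that docks granules at the plasma membrane, lies on chromosome 9 from 73044854 to 73097629 (plus strand, ENSMUSG00000032202). It had 97.5, 66.6, 98.4 and 98.7 CPM in CD45RBhi, 119.9, 108.2, 112.6 and 114.4 CPM in CD45RBlo, and 52.8, 49.4 and 44.3 CPM in naive libraries. The groups did not overlap, and CD45RBhi replicate 2 stood below the other memory libraries. The log2 fold change was 0.89 ± 0.133 in CD45RBhi (adjusted p = 0.000166) and 1.22 ± 0.134 in CD45RBlo (adjusted p = 1.06e-05).

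Unc13d and Stxbp2 did not differ detectably between memory and naive cells. Unc13d, which primes docked granules for fusion (chromosome 11, 116062095 to 116077961, minus strand), had 219, 241, 271 and 240.1 CPM in CD45RBhi, 244, 288, 310.4 and 276 CPM in CD45RBlo, and 256, 258 and 223 CPM in naive libraries. Stxbp2, the chaperone and partner of syntaxin-11 (chromosome 8, 3630955 to 3643644, plus strand), had 134, 207, 193 and 156 CPM in CD45RBhi, 142, 207, 203.5 and 168.5 CPM in CD45RBlo, and 162, 168 and 174 CPM in naive libraries. For both genes the ranges of all groups overlapped. The log2 fold change of Unc13d against naive was -0.02 ± 0.0996 in CD45RBhi (adjusted p = 0.901) and 0.19 ± 0.0999 in CD45RBlo (adjusted p = 0.157), and that of Stxbp2 was 0.04 ± 0.156 (adjusted p = 0.867) and 0.10 ± 0.156 (adjusted p = 0.640), so neither passed. With library size alone these values changed sign for Stxbp2, to -0.11 and -0.03.

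Per length of exon, the balance of these partners differed between memory and naive libraries. Counts of Unc13d per kilobase were 2.51 ± 0.168 times those of Stx11 in CD45RBhi (SD, n = 4), 2.48 ± 0.212 times in CD45RBlo (n = 4) and 56.2 ± 15.0 times in naive libraries (n = 3). Stxbp2 per kilobase was 1.98 ± 0.179 times Stx11 in CD45RBhi, 1.80 ± 0.277 times in CD45RBlo and 43.2 ± 10.2 times in naive libraries. The ratio of Unc13d to Stxbp2 overlapped between the groups, at 1.28 ± 0.180 in CD45RBhi, 1.39 ± 0.127 in CD45RBlo and 1.30 ± 0.145 in naive libraries. These ratios are taken within a library and do not depend on scaling between libraries.

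**Figure D2:**
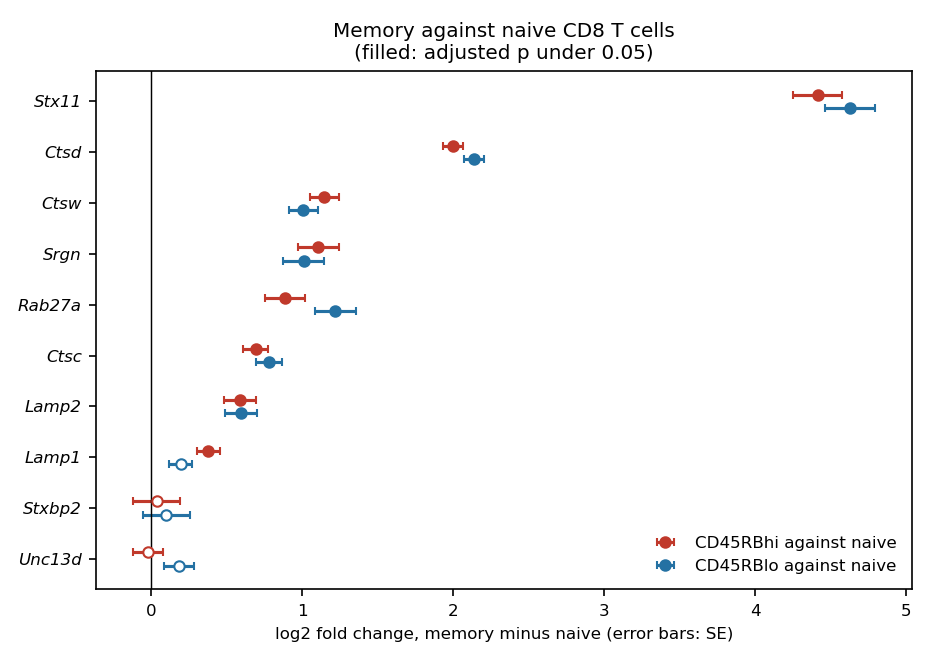
Log2 fold changes of the 10 granule genes (horizontal axis), CD45RBhi minus naive in red and CD45RBlo minus naive in blue, with SE as error bars, ordered by the CD45RBhi value. Stx11 stands apart at 4.42 and 4.63, Ctsd follows at 2.00 and 2.14, and the open points near 0 are Stxbp2, Unc13d and, for CD45RBlo only, Lamp1.

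Changes of the membrane protein genes were smaller than those of Stx11 and Rab27a. Lamp1 encodes CD107a, whose appearance at the cell surface is used to measure degranulation, and lies on chromosome 8 from 13159161 to 13175338 (plus strand). It had 352, 362, 348 and 370.4 CPM in CD45RBhi, 330.0, 336.5, 280.2 and 316 CPM in CD45RBlo, and 283, 260.2 and 283 CPM in naive libraries. CD45RBhi libraries lay above all others, whereas CD45RBlo replicate 3 fell within the naive range. Its log2 fold change against naive was 0.38 ± 0.0776 in CD45RBhi (adjusted p = 0.00167) and 0.20 ± 0.0773 in CD45RBlo, which did not pass (adjusted p = 0.0579). Without CD45RBlo replicate 3 the comparison of CD45RBlo with naive gave 0.25 and passed (adjusted p = 0.0145). Whether Lamp1 responded differently in the memory groups is the comparison between them, given further on.

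Lamp2, the other major lysosomal membrane glycoprotein (X chromosome, 38401357 to 38456454, minus strand), had 64.5, 53.6, 67.7 and 64.3 CPM in CD45RBhi, 63.9, 63.4, 60.1 and 64.7 CPM in CD45RBlo, and 40.9, 37.2 and 46.7 CPM in naive libraries. No memory library fell into the naive range. The log2 fold change was 0.59 ± 0.106 in CD45RBhi (adjusted p = 0.000715) and 0.60 ± 0.106 in CD45RBlo (adjusted p = 0.000581). Lamp1 per kilobase exceeded Lamp2 by 20.6 ± 2.49 times in CD45RBhi, 17.9 ± 1.04 times in CD45RBlo and 23.8 ± 1.87 times in naive libraries. In this ratio CD45RBhi overlapped the naive range and CD45RBlo lay below it. Its size depends on the length used, the union of annotated exons, which is 2675 bases for Lamp1 and 9552 bases for Lamp2.

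Srgn, the proteoglycan core of the granule matrix (chromosome 10, 62493833 to 62527451, minus strand), had 472, 314, 425 and 393 CPM in CD45RBhi, 419, 314, 376 and 392.3 CPM in CD45RBlo, and 175, 178 and 205 CPM in naive libraries. The lowest memory libraries, replicate 2 of each kind, were still above all naive libraries. The log2 fold change was 1.11 ± 0.137 in CD45RBhi (adjusted p = 3.24e-05) and 1.01 ± 0.136 in CD45RBlo (adjusted p = 6.17e-05).

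Among the cathepsins, Ctsd rose most. It encodes the main aspartyl protease of lysosomes and lies on chromosome 7 from 142375911 to 142388038 (minus strand, ENSMUSG00000007891). It had 1521, 1469, 1607 and 1586 CPM in CD45RBhi, 1784, 1674, 1666 and 1672 CPM in CD45RBlo, and 401, 376 and 381 CPM in naive libraries. The spread within each group was small beside the distance between memory and naive libraries. The log2 fold change was 2.00 ± 0.066 in CD45RBhi (adjusted p = 1.67e-10) and 2.14 ± 0.0664 in CD45RBlo (adjusted p = 8.74e-11). In GENCODE M21, 34.4% of its exon bases are shared with Gm49369 on the same strand, which is not among the genes of the count table.

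Ctsw, a cysteine cathepsin expressed mainly in cytotoxic T cells and NK cells (chromosome 19, 5465043 to 5468507, minus strand), had 776, 1010, 926 and 912.5 CPM in CD45RBhi, 768, 891, 863 and 772 CPM in CD45RBlo, and 426, 388 and 414 CPM in naive libraries. Naive cells thus already carried it, and each memory library was higher. The log2 fold change was 1.15 ± 0.0955 in CD45RBhi (adjusted p = 8.78e-07) and 1.01 ± 0.0951 in CD45RBlo (adjusted p = 2.61e-06). Ctsc, the granzyme-activating dipeptidyl peptidase (chromosome 7, 88278085 to 88310888, plus strand), had 361, 352, 362 and 369 CPM in CD45RBhi, 409, 376, 344 and 405 CPM in CD45RBlo, and 247, 211 and 211.5 CPM in naive libraries. These groups did not overlap with naive either, and the log2 fold change was 0.69 ± 0.0843 in CD45RBhi (adjusted p = 2.91e-05) and 0.78 ± 0.0845 in CD45RBlo (adjusted p = 9.33e-06). In all, 8 of 10 granule genes did not overlap between CD45RBhi and naive libraries, and 7 of 10 between CD45RBlo and naive, all higher in memory. Of all tested genes, 47.4% did not overlap between CD45RBhi and naive (24.1% higher, 23.3% lower) and 49.6% between CD45RBlo and naive (25.2% higher, 24.3% lower).

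By CPM per kilobase of exon, the order of the 10 genes was the same in both memory groups. In CD45RBhi libraries Ctsd led with 657.5 ± 26.7, followed by Ctsw (480.2 ± 51.4), Srgn (183 ± 30.2), Lamp1 (134 ± 3.78), Ctsc (62.2 ± 1.22), Unc13d (51.9 ± 4.62), Stxbp2 (41.5 ± 8.06), Rab27a (23.3 ± 4.08), Stx11 (20.8 ± 2.33) and Lamp2 (6.55 ± 0.640). Neighbours in this order whose libraries overlapped were Unc13d with Stxbp2 and Rab27a with Stx11 in CD45RBhi, Ctsc with Unc13d in CD45RBlo, and Stxbp2 with Ctsc in naive libraries. In naive libraries Ctsw (217 ± 10.3) came before Ctsd (164 ± 5.55), Lamp1 (103 ± 4.93) before Srgn (84.8 ± 7.61), Unc13d (52.6 ± 4.24) and Stxbp2 (40.4 ± 1.44) before Ctsc (38.5 ± 3.56), and Stx11 (0.969 ± 0.211) was last, behind Lamp2 (4.36 ± 0.501). Against all tested genes, Ctsd and Ctsw exceeded at least 98.4% in every group on this scale, whereas Stx11 exceeded 78.6% in CD45RBhi, 81.5% in CD45RBlo and 24.2% in naive libraries.

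Ctsd also changed place with another aspartyl cathepsin. Ctse, which encodes cathepsin E, was at 38.8 ± 5.71 CPM in CD45RBhi, 35.7 ± 6.89 CPM in CD45RBlo and 671.5 ± 41.7 CPM in naive libraries, with log2 fold changes of -4.11 ± 0.152 (adjusted p = 5.33e-10) and -4.23 ± 0.153 (adjusted p = 4.08e-10). The ratio of Ctsd to Ctse per kilobase was 63.2, 42.8, 55.6 and 56.8 in CD45RBhi, 79.1, 50.3, 74.0 and 60.5 in CD45RBlo, and 0.758, 0.806 and 0.765 in naive libraries. Transcript counts of Ctsd per kilobase thus exceeded those of Ctse in every memory library and stood below them in every naive library. Protein was not measured. The ratio of Ctsd to Ctsw was 1.38 ± 0.166 in CD45RBhi, 1.67 ± 0.166 in CD45RBlo and 0.757 ± 0.0193 in naive libraries.

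**Figure D3:**
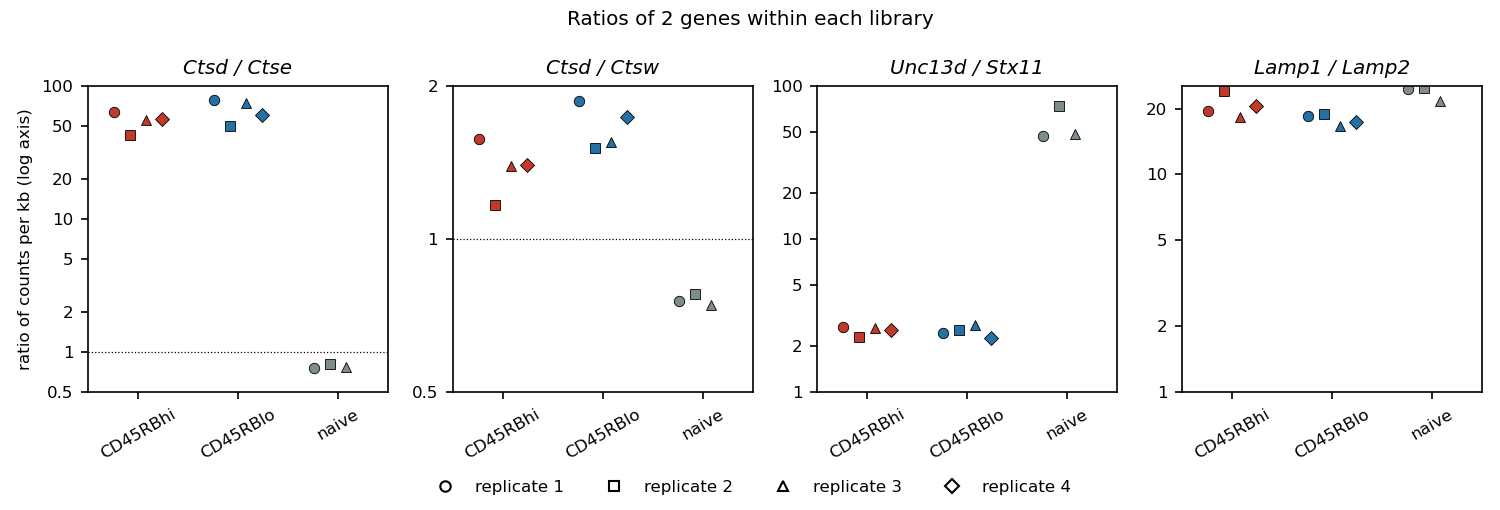
Ratios of counts per kilobase of 2 genes within each library (vertical axis, log scale) in CD45RBhi, CD45RBlo and naive libraries, 1 point per library, with a dotted line at 1. Ctsd to Ctse lies between 42.8 and 79.1 in memory libraries and below 1 in naive libraries, Ctsd to Ctsw crosses 1 in the same way, and Unc13d to Stx11 lies between 2.25 and 2.75 in memory and between 46.7 and 73.5 in naive libraries.

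The wider pathway was read from lists that do not hold the 10 genes. Of 31 other docking and fusion genes, 27 were tested, and 15 were higher and 4 lower in CD45RBhi, 17 higher and 4 lower in CD45RBlo, with medians of 0.44 and 0.47. Over all genes, 22.3% were higher and 19.1% lower in CD45RBhi, and 22.4% higher and 19.8% lower in CD45RBlo. Sytl2, an effector that binds RAB27A on granules, was at 123 ± 24.6 CPM in CD45RBhi, 145 ± 16.4 CPM in CD45RBlo and 18.4 ± 1.29 CPM in naive libraries (log2 fold changes 2.74 and 2.98, adjusted p = 3.09e-08 and 1.36e-08). Its relative Sytl3 rose by 1.53 and 1.54, the vesicle SNARE Vamp8 by 0.99 and 1.05, and Syt11, a synaptotagmin, by 1.21 and 1.37 log2 units. Stx6 (-0.74 and -0.81), Vamp2 (-0.63 and -0.44), Sytl1 (-0.64 and -0.65) and Rab32 (-0.70 and -0.93) were lower in both memory groups.

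Genes that build and move the granule changed less. Of 33 tested, 8 were higher and 0 lower in CD45RBhi, and 10 were higher and 1, Ap3m1 (-0.28), lower in CD45RBlo. The shares called in either direction were below those of all genes, 41.5% and 42.2%. The shares called higher were not below those of all genes, 22.3% and 22.4%, while the shares called lower were below 19.1% and 19.8%. Ap3s1, a subunit of the adaptor that sorts proteins to lysosome-related organelles, was the largest at 68.9 ± 1.94 CPM in CD45RBhi, 61.8 ± 3.45 CPM in CD45RBlo and 29.7 ± 2.02 CPM in naive libraries (1.22 and 1.06). Arl8a, a GTPase that couples lysosomes to kinesin, rose by 0.82 and 0.93, Vps18 by 0.46 and 0.47, and Hps6 by 0.43 and 0.57. Lyst, the gene mutated in the giant-granule disorder Chediak-Higashi syndrome, had 0.14 (adjusted p = 0.628) and 0.05 (adjusted p = 0.868).

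Other lysosomal proteases moved both ways, with 6 higher and 5 lower of 13 tested in CD45RBhi and 5 higher and 5 lower in CD45RBlo. The shares over all genes were 22.3% higher and 19.1% lower in CD45RBhi, and 22.4% and 19.8% in CD45RBlo. Scpep1, a serine carboxypeptidase, was at 62.8 ± 7.17 CPM in CD45RBhi, 57.0 ± 7.58 CPM in CD45RBlo and 10.3 ± 2.03 CPM in naive libraries (2.61 and 2.47), and Ctsa rose by 0.85 and 0.87. Besides Ctse, Ctsl fell by 2.68 and 2.79 log2 units, to 4.51 ± 0.955 CPM in CD45RBhi and 4.18 ± 1.84 CPM in CD45RBlo, against 29.1 ± 2.48 CPM in naive libraries. Macrophages also express Ctsl. The macrophage markers Lyz2 and C1qb had 1 to 18 and 5 to 30 counts in CD45RBhi libraries. They had 3 to 35 and 4 to 15 counts in CD45RBlo, and 219 to 509 and 126 to 164 in naive libraries. Of the 14 tested markers of that list, 10 were lower in each memory group, beside 19.1% and 19.8% of all genes, while Cd68 and Itgam were higher. The part of macrophages in the values of Ctsl was not tested.

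Of 40 other lysosomal membrane proteins and hydrolases, 37 were tested, with 19 higher and 8 lower in CD45RBhi and 17 higher and 6 lower in CD45RBlo. Among all genes, 22.3% were higher and 19.1% lower in CD45RBhi, and 22.4% and 19.8% in CD45RBlo. Laptm5, a lysosomal membrane protein of blood cells, was at 5405 ± 758 CPM in CD45RBhi, 5233 ± 728 CPM in CD45RBlo and 2243 ± 93.3 CPM in naive libraries (1.27 and 1.22). Man2b1, a lysosomal mannosidase, rose by 0.88 and 0.77, the sphingomyelinase Smpd1 by 0.90 and 0.92, and Cd68 by 3.12 and 2.91 log2 units, while the sterol carrier Npc2 was lower (-0.69 and -0.84). The genes of the mannose phosphate route, which delivers cathepsins and granzymes to lysosomes, were chosen from this list after their values were seen: Gnptab (1.84 and 1.97), Gnptg (0.72 and 0.69), M6pr (0.63 and 0.75) and Igf2r (0.88 and 0.91) were all called higher. Tfeb and Tfe3, factors that bind the CLEAR element, had 0.16 and 0.09 in CD45RBhi (adjusted p = 0.370 and 0.475) and 0.20 and 0.16 in CD45RBlo (adjusted p = 0.279 and 0.202).

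Genes of granule cargo, of secreted chemokines and of inhibitors that guard the cell were read as 1 list, which was drawn up with these results known, so its median is no measure of cargo against machinery. Of 15 genes, 14 were tested and 14 were higher in each memory group, with medians of 6.35 and 6.11. Among all genes, 22.3% were higher in CD45RBhi and 22.4% in CD45RBlo. The cargo list ranged widely, with Calr, which encodes calreticulin, at 0.63 and 0.65. Nkg7, a granule membrane protein, was at 3845 ± 188 CPM in CD45RBhi, 3998 ± 177 CPM in CD45RBlo and 861 ± 19.4 CPM in naive libraries (2.16 and 2.21), a change near that of Ctsd. Fasl rose by 7.84 and 8.08, Ccl5 by 8.43 and 8.46, and Prf1, which encodes perforin, by 2.41 and 2.45 log2 units. Cst7, which encodes cystatin F, an inhibitor of cathepsin C, was at 264 CPM in CD45RBhi, 250 CPM in CD45RBlo and 124 CPM in naive libraries (1.09 and 1.01).

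Serglycin carries glycosaminoglycan chains, and the enzymes that make them moved both ways. Of 31, 27 were tested, with 11 higher and 3 lower in CD45RBhi and 12 higher and 4 lower in CD45RBlo. Shares of all genes were 22.3% higher and 19.1% lower in CD45RBhi, and 22.4% and 19.8% in CD45RBlo. Chsy1, a chondroitin synthase, was at 213 ± 47.7 CPM in CD45RBhi, 277 ± 57.6 CPM in CD45RBlo and 23.6 ± 2.95 CPM in naive libraries (3.17 and 3.56). Pxylp1, a phosphatase acting on the linkage xylose, rose by 1.23 and 1.32. Ext1, which extends heparan sulphate, fell by 1.99 and 2.19 log2 units, and Chst15, a chondroitin sulfotransferase, was at 0.330 ± 0.236 CPM in CD45RBhi, 0.253 ± 0.221 CPM in CD45RBlo and 59.6 ± 6.51 CPM in naive libraries.

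**Figure D4:**
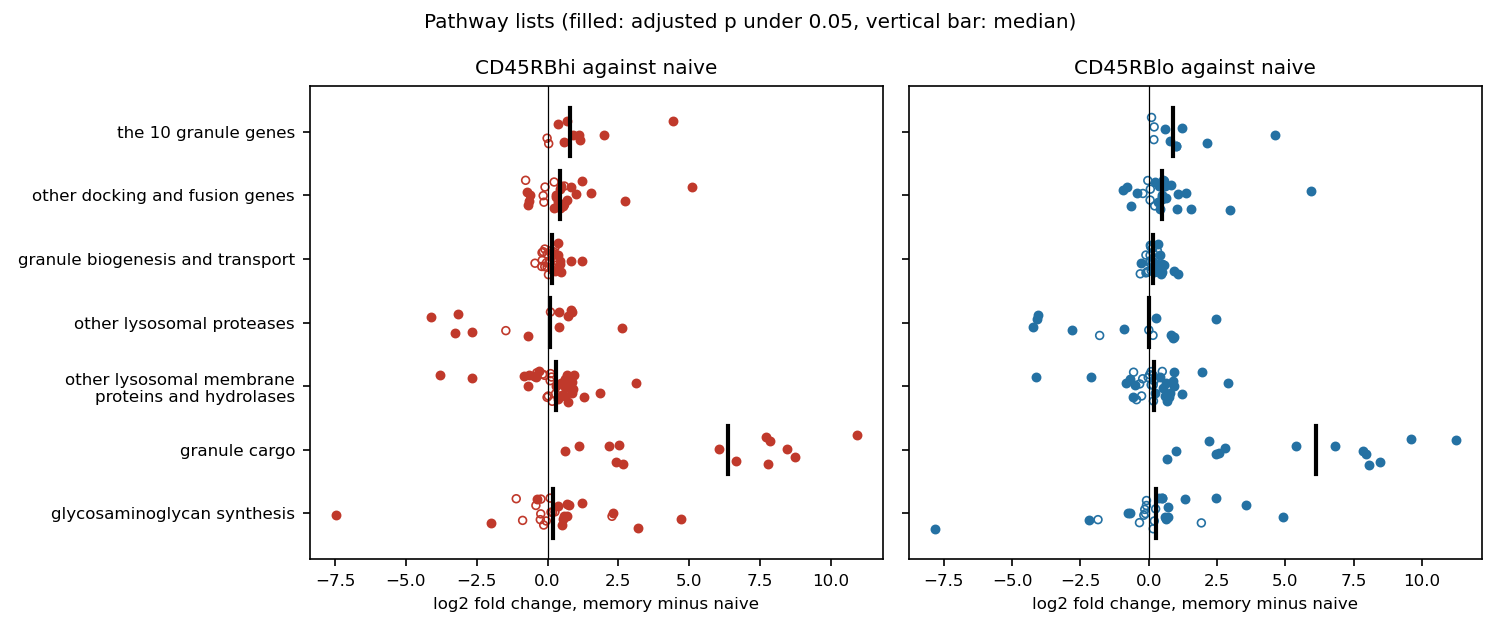
Log2 fold changes of the tested genes of each list (horizontal axis, 1 point per gene) in CD45RBhi against naive (left) and CD45RBlo against naive (right), filled where the adjusted p is under 0.05, with the median as a vertical bar. Cargo genes have medians of 6.35 and 6.11, the 10 granule genes 0.79 and 0.89, and granule biogenesis genes 0.16 and 0.17.

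Between the memory groups the granule genes differed little. Without regard to replicate numbers, edgeR called 0 of the 10 (0.124% of all 13735 genes were called, 0.0801% higher and 0.0437% lower), while 4 of 10 had an unadjusted p under 0.05, as did 1236 of all 13735 genes. DESeq2 also called 0, with 4 of 10 under 0.05 beside 1448 of 24292 genes. The median log2 fold change of CD45RBhi over CD45RBlo was -0.08 for the 10 genes and -0.00 for all genes. Ranges did not overlap for Rab27a and Ctsd, lower in CD45RBhi, and for Lamp1, higher in CD45RBhi; 4.99% of all genes had ranges that did not overlap, 2.68% higher and 2.31% lower in CD45RBhi.

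Same-numbered CD45RBhi and CD45RBlo libraries deviated together, so a second fit took the number as a blocking factor, and it called 2 of the 10 genes (5.59% of 12637 genes were called, 2.52% higher and 3.08% lower). Rab27a was lower in CD45RBhi, at 90.3 ± 15.8 CPM against 114 ± 4.84 CPM in CD45RBlo (SD, n = 4 each), with a log2 fold change of -0.35 ± 0.0819 (SE, adjusted p = 0.0293 in the block fit, 0.427 without the block). It was lower in 4 of 4 pairs, by -0.30, -0.70, -0.19 and -0.21. Pair 2 showed the largest difference, and without replicate 2 the block fit gave -0.24 (adjusted p = 0.0663). Unc13d was lower in CD45RBhi in 4 of 4 pairs as well, at 243 ± 21.6 CPM against 279.7 ± 27.7 CPM in CD45RBlo, by -0.20 ± 0.0507 (adjusted p = 0.0383 in the block fit, 0.543 without it). Neither call held when any 1 pair was left out, where adjusted p ran from 0.0521 to 0.0846 for Rab27a and from 0.0858 to 0.138 for Unc13d. With libraries corrected for trends in gene length and GC content, Rab27a kept its value (-0.34, adjusted p = 0.0245) and Unc13d did not pass (-0.08, adjusted p = 0.400).

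The remaining 8 genes did not pass in the block fit. Stx11 (-0.22 ± 0.0684, adjusted p = 0.0876) and Ctsd (-0.13 ± 0.0481, adjusted p = 0.127) were lower in CD45RBhi in 4 of 4 pairs, and so was Stxbp2 (-0.06, adjusted p = 0.536), though its difference in pair 2 rounded to -0.00. Lamp1 (0.19 ± 0.055, adjusted p = 0.0657), Ctsw (0.14 ± 0.0517, adjusted p = 0.148) and Srgn (0.09 ± 0.0535, adjusted p = 0.357) were higher in 4 of 4 pairs, where Srgn differed by 0.00 in pairs 2 and 4. The same direction in 4 of 4 pairs was seen for 29.0% of all genes in this fit, 14.6% higher and 14.4% lower. Ctsc (-0.08, adjusted p = 0.421) was lower in 3 of 4 pairs, and Lamp2 (-0.01, adjusted p = 0.939) in 2 of 4.

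**Figure D5:**
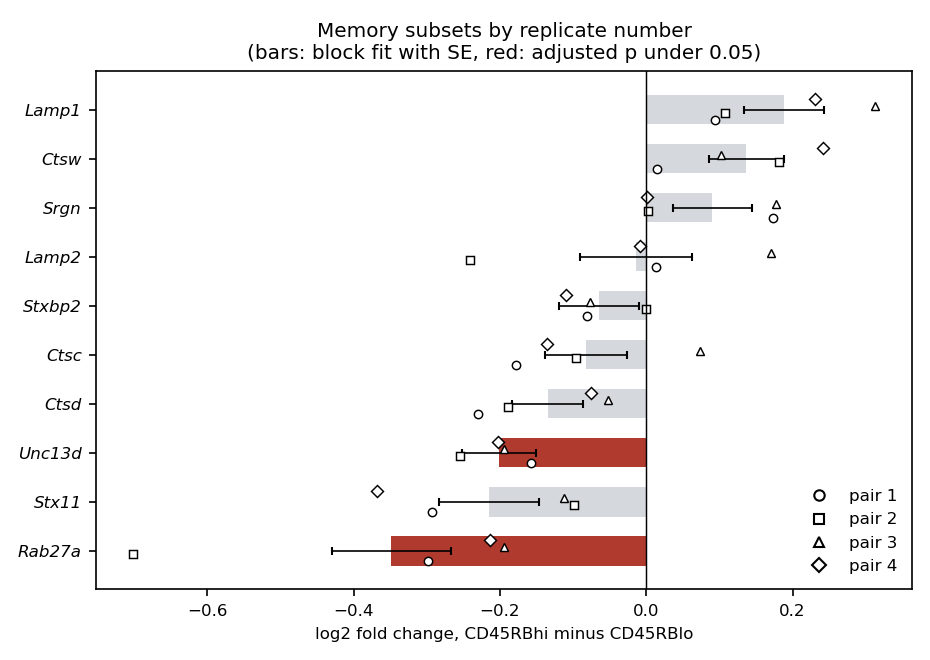
Log2 fold change of CD45RBhi minus CD45RBlo (horizontal axis) for the 10 granule genes. Bars give the block fit with SE, red for an adjusted p under 0.05, and symbols give the 4 pairs of same-numbered libraries; Rab27a (-0.35) and Unc13d (-0.20) are red, and pair 2 of Rab27a lies apart at -0.70.

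For several genes the range over replicate numbers was wider than the difference between CD45RBhi and CD45RBlo. These measures are unlike. A range over 4 numbers can exceed a single difference between group means without any effect of the number. Averaged over both memory groups, Stxbp2 deviated from its group mean by -0.34 log2 units in number 1 and by 0.25 in number 2, a range of 0.588 against a difference of -0.07 between CD45RBhi and CD45RBlo. Srgn had the opposite order, 0.21 in number 1 and -0.29 in number 2, a range of 0.501 against 0.09. Ctsw (range 0.297), Unc13d (0.329) and Stx11 (0.270) were also lowest in number 1. Ctsd had the smallest range over numbers, 0.0708, which was less than its CD45RBhi minus CD45RBlo difference of -0.14. Base composition differed between these genes, with 58.8% G and C in the longest transcript of Unc13d, 54.6% in Ctsw and 54.0% in Stxbp2. Srgn had 42.9% and Rab27a 47.0%. Other genes did not follow this order. Ctsd, with the smallest range, had 55.95%, and Stx11, lowest in number 1, had 47.1%. Lamp2 (38.65%) and Ctsc (41.1%) had small ranges of 0.145 and 0.131. Over all tested genes, the fifth of genes poorest in G and C (up to 43.5%) deviated in number 2 by a median of -0.05 in CD45RBhi and -0.07 in CD45RBlo, and in number 1 by 0.08 and 0.02. The part of base composition in the shifts by replicate number was not tested.

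In the wider lists, 0 genes were called between the memory groups without the block in each of the 6 lists (edgeR). Unadjusted p was under 0.05 for 2 of 27 docking, 1 of 33 biogenesis and 0 of 13 protease genes tested. It was so for 3 of 37 membrane and hydrolase, 2 of 14 cargo and 3 of 27 glycosaminoglycan genes. Among all 13735 genes, 1236 were under 0.05. The block fit called the lysosomal calcium channel Mcoln1 (-0.36, adjusted p = 0.0339), Chsy1 (-0.38, adjusted p = 0.00198) and the sulfotransferase Ndst1 (-0.55, adjusted p = 0.00708) lower in CD45RBhi. Among cargo it called Gzma (-0.90) and Gzmk (-0.32) lower and Gzmm (0.68) higher. That fit tested 35 membrane and hydrolase, 25 glycosaminoglycan and 14 cargo genes. It called 0 of 27 docking, 0 of 33 biogenesis and 0 of 11 protease genes. Over all genes it called 5.59%, 2.52% higher and 3.08% lower. Sytl2, the partner of RAB27A, had -0.25 ± 0.071 (adjusted p = 0.0587).

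Genes whose profile over the 11 libraries was closest to a granule gene were found by the root mean square difference of mean-centred log2 CPM. Ctsd was closest to Nkg7 (0.0764) and Btg2 (0.101), Stx11 to Casp1 (0.149) and Itgb1 (0.175), and Rab27a to Atp10a (0.0985) and Tyk2 (0.108). Ctsw was closest to Gimap4 (0.0711) and Selplg (0.0886), Srgn to Dstn (0.0946) and Txn1 (0.0999), and Ctsc to Pdia4 (0.0707) and M6pr (0.0757). Unc13d was closest to Pofut2 (0.071) and Cul4a (0.0768), Stxbp2 to Commd4 (0.0607) and Slc26a11 (0.0698), Lamp1 to Ppp2ca (0.0466) and Pomp (0.0467), and Lamp2 to Clcn4-2 (0.0763) and Atox1 (0.0919). Among the 10 genes themselves, the closest pairs were Lamp2 with Ctsc (0.139) and Unc13d with Stxbp2 (0.160).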

How the data were processed

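Messenger RNA was sequenced in 11 libraries of sorted CD8 T cells. The deposited values are unnormalized counts, in whole reads, for each library and Ensembl gene identifier. Per the submitters' processing notes, the authors used featureCounts, SAMtools and DESeq2, with mm10 and GRCm38 named as builds. The aligner, the release of the annotation and the strand setting are not stated in the sources at hand. Without strand, reads from overlapping genes cannot be told apart: Lamp1 shares 249 exon bases with Grtp1 (4 to 40 counts per library) and Ctsw 9 with Fibp.

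Genes were kept with filterByExpr (minimum count 10; 13735 genes, at least 99.9% of each library's counts), scaled by TMM, and group means were fitted over all libraries with edgeR 4.0.16 (glmQLFit, glmQLFTest, two-sided, Benjamini-Hochberg, threshold 0.05; R 4.3.3, limma 3.58.1, DESeq2 1.42.0, Python 3.11.15, matplotlib 3.10.9). The fits were tested on simulated data. Fold changes are log2 with SE, levels are CPM with SD. A limit of 3 counts is 0.130 to 0.170 CPM, counting error only. Exon lengths, positions and GC content come from GENCODE M21 (GRCm38), which need not be the annotation counted on. Length is the union of all annotated exons of a gene and not that of the transcript expressed. Ratios and orders per kilobase between genes depend on it. None of 15 replicate pairs was identical (chi-square per degree of freedom 10.2 to 93.3).

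Replicate numbers are shared between groups. Across genes, CD45RBhi and CD45RBlo libraries of the same number had deviations that correlated at 0.191 to 0.452 and differently numbered ones at most at 0.0284, so these libraries were taken as pairs on the evidence of the data alone, since no label says so; with naive libraries same-numbered values were -0.101 to 0.0565. The genes and lists were chosen with earlier results of these data known. Named genes are the 10 granule genes, up to 4 called genes per list and comparison by p, and the 2 closest profiles per granule gene; others named in the text were chosen after their values were seen. The alternatives were library size alone, DESeq2, no filter, the compared groups alone, each library left out, the replicate block, and length and GC correction.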

Additional observations from a re-analysis of the deposited data

Results flagged for a closer look

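Rab27a in CD45RBhi replicate 2 was at 66.6 CPM, far from the other CD45RBhi libraries (97.5 to 98.7 CPM), a gap that exceeds Dixon's limit for 4 values. Ctsd in CD45RBlo replicate 1 was at 1784 CPM, apart from the other CD45RBlo libraries (1666 to 1674 CPM) by the same measure. Chance flags about 1 in 20 groups, and 20 groups of 4 libraries were examined. Without CD45RBhi replicate 2, the log2 fold change of Rab27a between CD45RBhi and CD45RBlo was -0.21, against -0.33 with it. Between the memory groups, the response of Rab27a (-0.35) and of Unc13d (-0.20) differed in the fit with the replicate number as a block.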

How the results depend on the processing

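Of 540 values of the 10 genes under an alternative (30 results), 534 kept their side of the threshold, 0 lost a call and 6 gained one: Lamp1 in CD45RBlo against naive without CD45RBlo replicate 3, and Rab27a and Unc13d between the memory groups under the block fits. Uncalled values changed sign in places, among them Unc13d (-0.16 to 0.03) and Stxbp2 (-0.11 to 0.14) in CD45RBhi against naive. Called granule genes numbered 8 in CD45RBhi against naive under every alternative, and 7 to 8 in CD45RBlo against naive. A replicate block over all libraries gave 5792 genes called in each comparison with naive and 8 and 7 granule genes, and changed no call of a granule gene there. Between the memory groups, genes called numbered 17, against 145 by DESeq2, 4 with these groups alone, 707 with the replicate block, 758 with the block by limma-trend and 752 with length and GC correction added, where 478 were higher and 274 lower, against 331 and 427 by limma-trend without the correction; the cause was not tested. Granule genes called were 2, 2 and 1 in these 3 block fits. With 1 library removed, 6 to 15 genes were called (6 when CD45RBhi replicate 3 or 4 or naive replicate 3 was left out, 7 without CD45RBlo replicate 3 or 4 or naive replicate 1 or 2, 9 without CD45RBlo replicate 1) and 0 granule genes, and the block fit gave 344, 667, 167 and 300 genes without pair 1, 2, 3 and 4, with 0 granule genes each. The lowest count of a granule gene in a library was 61, for Stx11 in naive cells; the effect of depth was not tested.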
